A study of Mus musculus with 4 samples.

Results

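Acly, Fasn, Me1 and Pklr encode enzymes that turn glucose carbon into fatty acids in the liver, and Thrsp and Srebf1 encode regulators of that route. All probe sets annotated to these 6 genes were taken, which gave 7 probe sets, 2 for Pklr and 1 for each other gene, among 12422 non-control probe sets. The array named 8251 genes by a probe set with a single gene. Hepatic RNA came from female mice of 8 months, killed in the fed state after 6 months on either diet. HSL-null mice (ko in the labels) lack hormone-sensitive lipase, encoded by Lipe, in all tissues, and wild-type (wt) mice carry it. The high fat diet (FD) supplied 58% and the normal diet (ND) 11% of energy as fat. The 4 groups were HSL-null on FD, a pool of 4 livers, and HSL-null on ND, wild type on FD and wild type on ND, pools of 6 livers each. Each pool was hybridised to 1 Affymetrix MG_U74Av2 array, so there were no replicates, nothing was tested, and spread between animals was not measured. The labels used here give no strain, allele or breeding.

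De novo lipogenesis starts from citrate exported from mitochondria. Acly (ATP citrate lyase) splits it to cytosolic acetyl-CoA, Fasn (fatty acid synthase) builds palmitate from acetyl-CoA and malonyl-CoA, and Me1 (cytosolic malic enzyme) supplies NADPH for the reductions. Pklr encodes the pyruvate kinase of liver and red cells, which closes glycolysis and feeds pyruvate to the route. Srebf1 encodes SREBP-1, a membrane-bound transcription factor that is cleaved before it enters the nucleus and whose liver form is induced by insulin, so its mRNA need not follow its activity. Thrsp encodes Spot 14, a small protein of lipogenic tissues that thyroid hormone and carbohydrate feeding induce. In liver the enzyme genes and Thrsp are known for higher expression after carbohydrate feeding and lower expression on fat-rich diets.

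The RefSeq promoter table of build GRCm38.p6 matched all 6 genes with 10 annotated starts. The 250 bases before a start are shown for the 5 genes that were lowest in the HSL-null FD pool. They show where some common promoter motifs lie before these genes, and no motif lies in all 5 windows shown. For Pklr the second and for Me1 the first start along the gene is shown. Capitals mark matches to the NF-Y box (CCAAT, read as ATTGG on the other strand), the GC box (GGGCGG, read as CCGCCC on the other strand) or the TATA box (TATAAA), and all sequences run 5′ to 3′ along the gene.
Acly, chr11:100528001-100528250, minus strand: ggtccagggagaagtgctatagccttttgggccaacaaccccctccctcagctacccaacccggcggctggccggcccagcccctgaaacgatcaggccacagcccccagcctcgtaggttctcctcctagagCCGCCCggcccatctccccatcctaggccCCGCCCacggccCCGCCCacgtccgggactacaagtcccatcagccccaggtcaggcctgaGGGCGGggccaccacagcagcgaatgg
Fasn, chr11:120824548-120824797, minus strand: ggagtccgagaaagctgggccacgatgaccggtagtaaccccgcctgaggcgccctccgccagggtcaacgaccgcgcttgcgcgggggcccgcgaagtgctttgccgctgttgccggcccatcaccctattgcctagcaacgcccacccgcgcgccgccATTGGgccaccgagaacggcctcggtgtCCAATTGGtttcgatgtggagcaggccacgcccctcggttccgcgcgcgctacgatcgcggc
Me1, chr9:86695915-86696164, minus strand: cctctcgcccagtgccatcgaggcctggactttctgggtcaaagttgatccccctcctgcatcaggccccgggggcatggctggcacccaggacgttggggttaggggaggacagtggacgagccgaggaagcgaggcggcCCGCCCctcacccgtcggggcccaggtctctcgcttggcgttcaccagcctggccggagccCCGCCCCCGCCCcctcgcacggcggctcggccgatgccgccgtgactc
Pklr, chr3:89136373-89136622, plus strand: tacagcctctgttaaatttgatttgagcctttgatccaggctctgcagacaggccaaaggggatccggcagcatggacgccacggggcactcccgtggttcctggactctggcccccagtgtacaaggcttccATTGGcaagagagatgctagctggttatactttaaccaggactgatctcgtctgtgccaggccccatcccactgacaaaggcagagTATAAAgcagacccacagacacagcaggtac
Thrsp, chr7:97417551-97417800, minus strand: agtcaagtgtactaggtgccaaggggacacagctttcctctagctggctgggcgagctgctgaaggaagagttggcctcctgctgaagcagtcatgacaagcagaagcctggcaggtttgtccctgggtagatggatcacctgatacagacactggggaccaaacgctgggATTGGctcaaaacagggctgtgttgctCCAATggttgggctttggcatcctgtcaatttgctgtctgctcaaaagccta
An NF-Y box lay before at least 1 start of 5 of the 6 genes, all but Acly, against 37.5% of 27025 genes in the table. A gene with more starts has more windows in which to match. Counted by start, the NF-Y box lay before 6 of 10, against 33.8% of 32851 starts in the table. Fasn held 3 matches, of which the pair nearest to the start overlapped in its last bases, and Thrsp held 2. The match of Me1 lay before its second start, which is not shown. A GC box lay before 3 of the 6 genes, Acly, Me1 and Srebf1, against 35.4% of all genes. The TATA box lay before 1 gene, Pklr, 31 to 26 bases before its second start, against 14.3% of all genes. By start, the GC box lay before 4 of 10 and the TATA box before 1 of 10, against 32.7% and 12.4% of all starts. The sterol regulatory element (TCACNCCAC), the E-box (CACGTG) and DR4, a direct repeat of AGGTCA with 4 bases between, matched none of the 10 windows, against 1.22%, 6.86% and 0.0148% of all genes, with both strands searched. These are matches of letters in short windows and show no binding.

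The values are intensities on a linear scale, here called signals, summarised and scaled by the authors. The median signal of non-control probe sets was 25.2 to 28.3 on the 4 arrays. Ratios were taken as log2 values after raising signals to a floor of 6.1, and 4829 genes with a mean signal of at least 26.9 served as the background, each by its brightest probe set. All 7 probe sets passed that filter and lay above the floor on the 4 arrays. A 2-fold ratio, or 1 on the log2 scale, was the size used for counting. Disagreement between the log2 ratios of 2 probe sets of the same gene gave an SD of 0.298 per ratio over 687 genes. For this each difference was divided by the square root of 2, and the 4 comparisons, at 0.257 to 0.317, were pooled. The SD was 0.200 over the 142 genes where both had a mean signal of at least 150, a limit chosen after the values were seen. This SD leaves out error shared by an array and the variation between animals. The run settings gave the arrays of each genotype a separate solution lot. A lot effect cannot be told apart from genotype, while both diet comparisons lay within 1 lot. Lipe had signals of 15.9 in HSL-null FD and 11.9 in HSL-null ND, against 34.0 in wild type FD and 28.0 in wild type ND. The sources used here do not say whether its probe set reads the deleted stretch, so these signals check the labels in part. All 12 hepatocyte markers on the array lay above the floor on every array, with Alb (albumin) signals of 4680 to 6913.

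The 4 enzyme genes had 1 pattern across the pools: lowest in HSL-null FD, highest in HSL-null ND, with both wild-type pools between. For Fasn, wild type ND was level with the highest. On FD against ND, all 4 were 2-fold or more lower in HSL-null liver, and none was in wild-type liver. Thrsp was lowest in HSL-null FD too, but highest in wild type. Srebf1 had the opposite order in HSL-null liver, with its highest signal on FD and its lowest on ND.

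**Figure D1:**
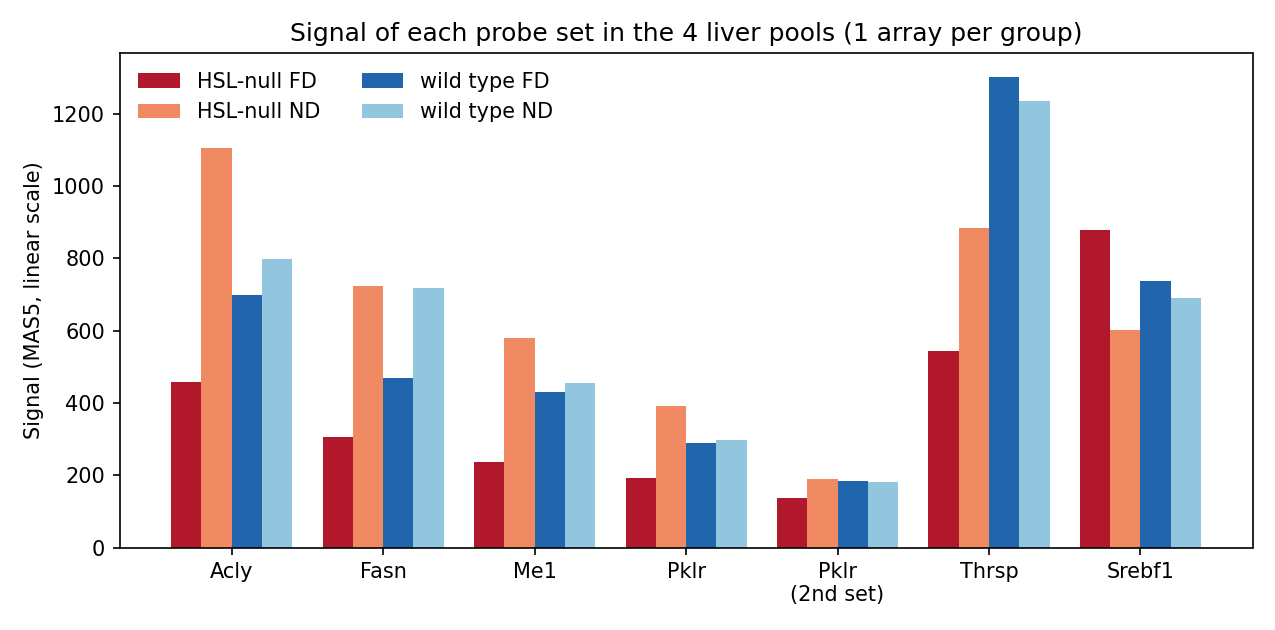
Signals (MAS5, linear scale) of the 7 probe sets of the 6 genes, with 1 bar per liver pool and no error bar because each group is 1 array. The HSL-null FD bar is the lowest for 6 probe sets and the highest for Srebf1. Bar heights of different probe sets are not comparable.

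Acly had signals of 459.4 in HSL-null FD and 1104.8 in HSL-null ND, and of 699.9 in wild type FD and 798.6 in wild type ND. The 2 HSL-null pools thus enclosed the wild-type pools, which differed little. On FD against ND the log2 ratio was -1.27 in HSL-null liver, 2.40-fold lower, and -0.19 in wild-type liver. HSL-null liver had 0.47 relative to wild type on ND and -0.61 on FD.

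Fasn had signals of 306.6 and 722.8 in HSL-null liver on FD and ND, against 468.3 and 718.6 in wild-type liver on FD and ND. It was the member with a lower signal on FD in both genotypes beyond 1.5-fold, with log2 ratios of -1.24 in HSL-null and -0.62 in wild-type liver. On ND the genotypes were level, with a log2 ratio of 0.0084 that turned to -0.042 under quantile normalization and -0.0059 under cyclic loess. On FD, HSL-null liver had -0.61 relative to wild type.

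Me1 had signals of 236.4 and 580.0 in HSL-null liver on FD and ND, against 430.9 and 454.1 in wild-type liver on FD and ND. Its FD to ND log2 ratio was -1.29 in HSL-null liver, 2.45-fold lower and the largest of the 6 genes, and -0.076 in wild-type liver. The wild-type ratio was 0.066 under median scaling. HSL-null liver had a log2 ratio to wild type of -0.87 on FD, 1.82-fold lower, and of 0.35 on ND.

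Pklr was read by 2 probe sets, which had the same order of pools in HSL-null liver but different sizes. The brighter had signals of 192.3 and 390.9 in HSL-null liver on FD and ND, against 288.7 and 298.6 in wild-type liver on FD and ND. The other, whose suffix marks probes shared by several transcripts, had 136.0 and 190.5 in HSL-null liver, against 183.9 and 181.5 in wild-type liver. Both were thus lowest in HSL-null FD and level between the diets in wild type. The FD to ND log2 ratio in HSL-null liver was -1.02 by the brighter probe set, 2.03-fold lower and just past the 2-fold limit, but -0.49 by the other. In wild-type liver the 2 probe sets gave -0.049 and 0.019. On FD, HSL-null against wild type, they gave -0.59 and -0.44, and on ND 0.39 and 0.070, so that the higher Pklr signal of HSL-null ND rests on the brighter probe set.

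Thrsp had signals of 544.0 and 883.4 in HSL-null liver on FD and ND, against 1303.0 and 1234.7 in wild-type liver on FD and ND. Both HSL-null pools lay below both wild-type pools, which set Thrsp apart from the enzyme genes in the order of the pools. HSL-null against wild type, the log2 ratio was -1.26 on FD, 2.40-fold lower, and -0.48 on ND. On FD against ND it was -0.70 in HSL-null and 0.078 in wild-type liver.

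Srebf1 had signals of 878.3 and 601.7 in HSL-null liver on FD and ND, against 737.3 and 690.6 in wild-type liver on FD and ND. Its FD to ND log2 ratio was 0.55 in HSL-null liver and 0.094 in wild-type liver. HSL-null against wild type it was 0.25 on FD and -0.20 on ND, both within the SD of 0.298 over all probe set pairs, and the ratio on FD was above, the one on ND level with, the 0.200 of bright pairs. The sources used here do not say which of the gene's alternative transcripts the probe set reads.

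**Figure D2:**
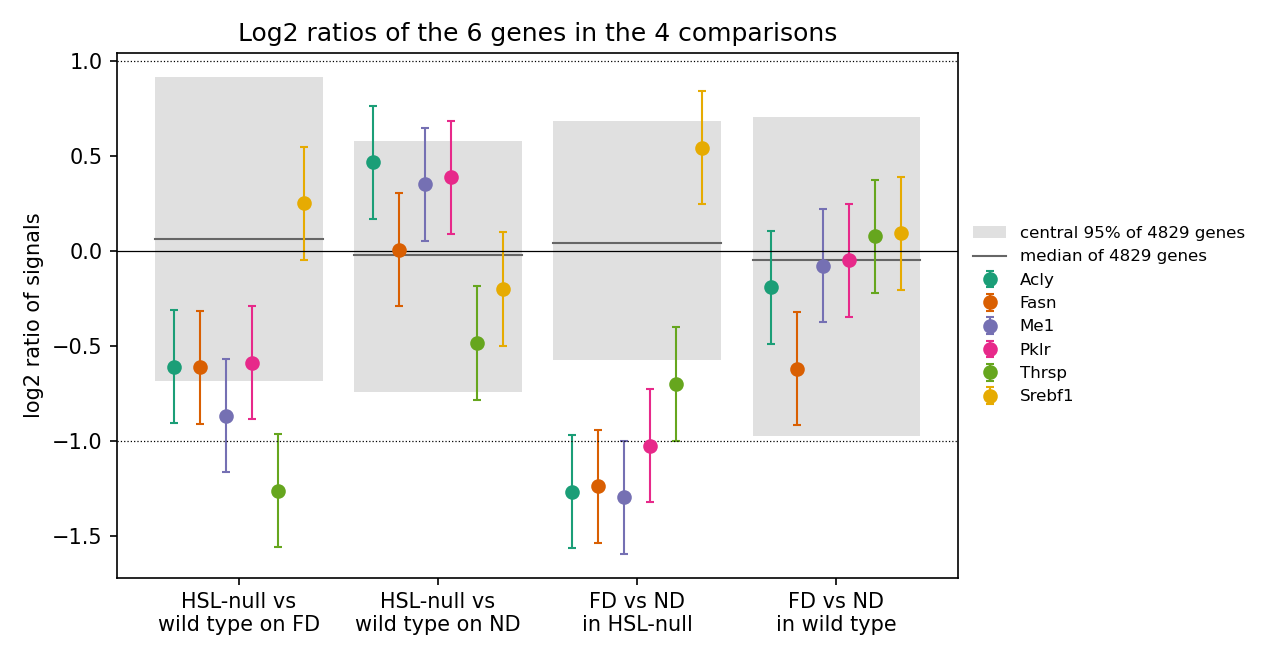
Log2 ratios of the 6 genes (brightest probe set) in the 4 comparisons, named on the horizontal axis. Error bars are the SD of 0.298 per ratio, estimated from the disagreement between probe sets of the same gene and pooled over the 4 comparisons. Grey boxes hold the central 95% of 4829 genes, with their median as a line, and dotted lines mark 2-fold. On FD against ND in HSL-null liver, Acly, Fasn, Me1, Pklr and Thrsp lie below the box, while in wild-type liver all 6 lie inside it.

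For diet in HSL-null liver, 4 of the 6 genes were 2-fold or more lower, against 0.621% of all 4829 genes. These 4 made up 13.3% of the 30 genes that were that much lower. None of the 6 was 2-fold higher, against 0.828% of all genes. Over all genes 40 were higher and 30 lower, but 22 and 48 under median scaling, 28 and 39 under quantile normalization and 26 and 41 under cyclic loess. The median log2 ratio of the 6 was -1.13, against 0.041 for all genes. Among brighter genes, with a mean signal of at least 97.1, which include all 6, 0.715% were 2-fold lower. At 1.5-fold, 5 of 6 were lower, now with Thrsp, against 2.3% of all genes, and none was higher, against 4.14%. Acly, Fasn, Me1 and Pklr had ratios at or above those of no more than 0.621% of genes, Thrsp of 1.41%, and Srebf1 of 95.0%.

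For diet in wild-type liver, none of the 6 genes was 2-fold different, against 2.36% of all genes lower and 0.787% higher. Over all genes 38 were higher and 114 lower, but 61 and 74 under median scaling, 48 and 84 under quantile normalization and 47 and 87 under cyclic loess. The median log2 ratio of the 6 was -0.062, against -0.047 for all genes. At 1.5-fold, 1 of 6, Fasn, was lower, against 9.48% of all genes, and none was higher, against 4.56%.

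For genotype on FD, 1 of 6, Thrsp, was 2-fold lower, against 0.953% of all genes, and none was 2-fold higher, against 1.86%. Over all genes 90 were higher and 46 lower, but 51 and 72 under median scaling, 63 and 59 under quantile normalization and 57 and 60 under cyclic loess. The median log2 ratio of the 6 was -0.61, against 0.067 for all genes. At 1.5-fold, 5 of 6 were lower, against 3.77%, with Pklr at the limit, and none was higher, against 9.17%. This comparison shares the HSL-null FD array with the diet comparison in HSL-null liver, so the low signals of that 1 array enter both.

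For genotype on ND, none of the 6 was 2-fold or 1.5-fold different. Over all genes 1.08% were 2-fold lower and 0.497% higher, and 4.37% and 2.36% at 1.5-fold. At 2-fold 24 were higher and 52 lower, but 30 and 36 under median scaling, 28 and 38 under quantile normalization and 27 and 35 under cyclic loess. The median log2 ratio of the 6 was 0.18, against -0.018 for all genes. The 4 enzyme genes had a median of 0.37, with Fasn near 0.

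The 2 genotype ratios share no array, and their difference, FD minus ND, equals the difference between the diet ratios. It was -1.22 for Me1, -1.08 for Acly, -0.97 for Pklr, -0.78 for Thrsp, -0.62 for Fasn and 0.45 for Srebf1 on the log2 scale. For 2 of the 6 genes it was at or below -1, against 1.39% of all genes, and none lay at or above 1, against 4.93%. The balance over all genes turned with the scaling, with 67 genes at or below -1 and 238 at or above 1 here, 211 and 114 under median scaling, 117 and 149 under quantile normalization and 115 and 147 under cyclic loess. The median was -0.88, against 0.092 for all genes. The sign was the same in the 4 enzyme genes and Thrsp, and Srebf1 had the other sign.

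**Figure D3:**
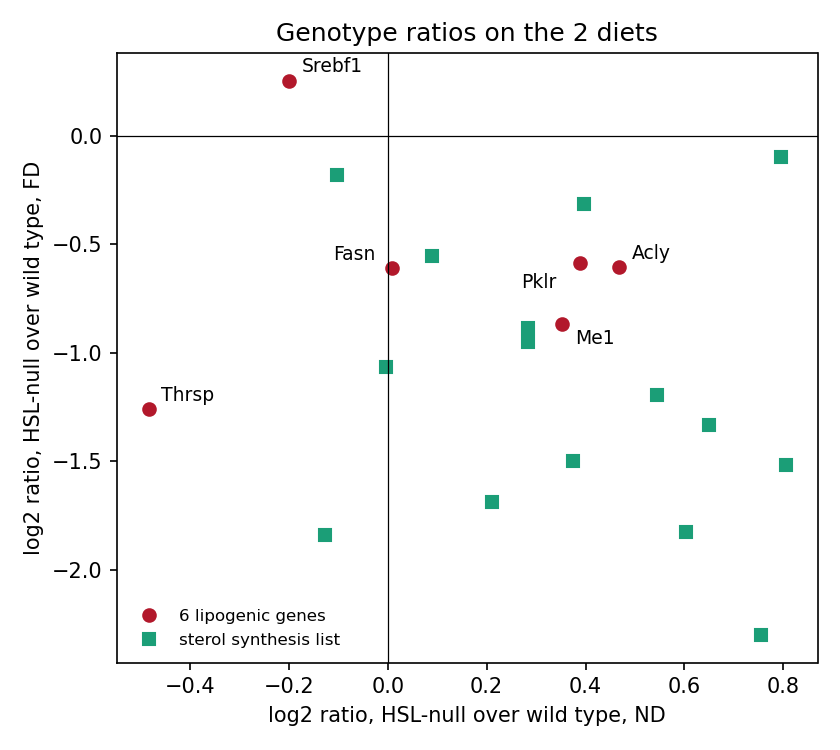
Genotype log2 ratio, HSL-null over wild type, on FD (vertical axis) against that on ND (horizontal axis), for the 6 genes (circles, named) and 15 genes of sterol synthesis (squares), 1 point per gene and no error bar. Acly, Me1 and Pklr lie above 0 on ND and below 0 on FD, Thrsp lies below 0 on both, and Srebf1 lies at the upper left.

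Across the 4 arrays, the profiles of the members were compared by the root mean square difference of log2 signals centred on each gene's mean. It was 0.10 between Acly and Me1, 0.10 between Acly and Pklr and 0.12 between Me1 and Pklr. Fasn lay 0.19 to 0.24 from these 3 genes, Thrsp 0.38 to 0.46 from the 4 enzyme genes and Srebf1 0.56 to 0.70 from all others. Of the other kept genes, 1 lay nearer to Acly than Me1 did, and 1598 lay nearer to Acly than Thrsp did. With 4 arrays such likeness is a description of these pools.

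Among genes outside the set, Rdh11, a retinol dehydrogenase gene read by a probe set shared within a gene family, was nearest to Acly, with a difference of 0.10. Dntt, which encodes a DNA polymerase of developing lymphocytes, was nearest to Me1 at 0.08, and Angptl4, which encodes an inhibitor of lipoprotein lipase, nearest to Pklr at 0.12. The signals of Rdh11 were 279.5 and 698.4 in HSL-null liver on FD and ND, against 437.1 and 426.7 in wild-type liver on FD and ND. Rdh11, Dntt and Angptl4 each stood among the 5 nearest genes of Acly and of Me1, and they were also the 3 nearest to the median profile of the 6 genes. Fasn had other neighbours, led by Lpin1, which encodes a phosphatidate phosphatase of triglyceride synthesis, at 0.08, Snhg6 at 0.09 and Prom1 at 0.11. Thrsp was nearest to Phlda1 at 0.08, Mknk2 at 0.10, Nup107 at 0.10 and Tef, a clock-controlled transcription factor gene, at 0.12. Tef signals were 38.8 and 68.2 in HSL-null liver on FD and ND, against 115.2 and 105.3 in wild-type liver on FD and ND.

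Of all 4829 genes, 197, or 4.08%, were lowest in HSL-null FD and highest in HSL-null ND. With a 2-fold lower signal on FD in HSL-null liver required as well, 12 genes remained, named here after their values were seen. They were Acly, Fasn, Me1 and Pklr, the sterol synthesis genes Dhcr7, Fdps and Sqle, and 5 others, Ccne1, Cyp17a1, D030056L22Rik, Dntt and Rdh11. Ccne1 and D030056L22Rik had signals of 20.8 and 19.2 in HSL-null FD, below the mean of 26.9 that the filter asked for.

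Of 25 other listed enzymes that make, lengthen and desaturate fatty acids, 12 were measured. Over all 4829 genes, 2068 lay below 0 for diet in HSL-null liver, and 0.621% were 2-fold lower. The list's median log2 ratio there was -0.32, with 10 genes below 0. Above 0 were 2, Scd2 at 0.28 and Hsd17b12 at 0.17, and 1 was past 2-fold. The gene past 2-fold was Elovl6, which lengthens palmitate, with signals of 103.0 and 327.4 in HSL-null liver on FD and ND, against 67.2 and 377.5 in wild-type liver on FD and ND. Elovl6 was thus low on FD in both genotypes, with log2 ratios of -1.67 in HSL-null and -2.49 in wild-type liver, and -1.87 and -1.45 by its other probe set. Its HSL-null ratio was lower than that of any of the 6 genes. Scd1, the main desaturase of liver, had the same kind of order, with diet ratios of -0.67 in HSL-null and -0.72 in wild-type liver, or -0.43 and -0.61 by another probe set. Acsl5, which activates fatty acids, had -0.45 in HSL-null and 0.04 in wild-type liver, and Slc25a1, the mitochondrial citrate carrier gene that acts before Acly, had -0.38 and 0.29. In wild-type liver the list had a median of -0.017, which was 0.12 under median scaling. Acaca, which encodes the carboxylase that makes malonyl-CoA, was not analysed here.

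Triglyceride synthesis enzymes had a median log2 diet ratio of -0.30 over 7 measured genes of 12 in HSL-null liver and 0.29 in wild-type liver. Lpin1 had -1.04 and -0.59, and Gpam, which adds the first acyl chain to glycerol phosphate, -0.80 and 0.18. Gpam signals were 385.4 and 672.5 in HSL-null liver on FD and ND, against 484.6 and 428.7 in wild-type liver on FD and ND. The HSL-null ND pool was thus the highest and the HSL-null FD pool the lowest for Gpam, as for the 4 enzyme members. Gpd1, which makes glycerol phosphate, had 0.31 in HSL-null and 0.96 in wild-type liver. For the difference between genotype ratios 7 of 7 genes lay below 0, against 2016 of all 4829 genes. The median was -0.46, against 0.092 for all genes. Under median scaling these medians were -0.76 and -0.21.

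A list of pentose phosphate route genes and Idh1 (cytosolic isocitrate dehydrogenase) covered other routes to cytosolic NADPH, though not every listed enzyme makes NADPH itself. The median diet ratio was -0.15 over 6 measured genes of 8 in HSL-null liver and 0.30 in wild-type liver. In HSL-null liver 4 lay below 0 and 2 above, against 2068 of all 4829 genes below 0. None was 2-fold different in either genotype, against 0.621% of all genes lower and 0.828% higher in HSL-null liver. In wild-type liver these shares were 2.36% and 0.787%. Tkt (transketolase) had -0.50 in HSL-null and 0.26 in wild-type liver, and Pgd, of the oxidative pentose phosphate route, -0.27 and 0.78. Idh1 and Rpia went the other way, with 0.10 and 0.04 in HSL-null and -0.21 and -0.68 in wild-type liver. On ND, Pgd had the largest genotype ratio of the list, 0.79.

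The median of the other measured glycolysis genes did not share the size of the Pklr ratio in HSL-null liver, -1.02 or -0.49 by probe set. Over 9 measured genes of 18, the median diet ratio was -0.0091 in HSL-null liver, turning to 0.073 under quantile normalization and 0.072 under cyclic loess, and 0.077 in wild-type liver. Hk1, the hexokinase found in most tissues, had -0.68 in HSL-null liver, between the Pklr values, and -1.25 in wild-type liver. Slc2a2, the glucose transporter gene of hepatocytes, had -0.084 and 0.077.

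Of 38 listed regulators 23 were measured, and none was 2-fold higher on FD against ND in HSL-null liver under median scaling. With the scaling of the deposited values 1 was, against 0.828% of all genes. It was Nr0b2, which encodes SHP, a repressor induced by the bile acid receptor, with signals of 220.4 and 104.0 in HSL-null liver on FD and ND, against 97.1 and 99.5 in wild-type liver on FD and ND. Its signal was highest in HSL-null FD, on 1 array, and a link to the enzyme genes was not tested. Nr1h4, which encodes the bile acid receptor FXR, had diet ratios of 0.87 in HSL-null and 0.35 in wild-type liver, and Pparg had 0.81 and 0.66. Nr1h3, the LXR alpha gene, which acts upstream of Srebf1, had 0.065 and 0.14. Mid1ip1, the paralogue of Thrsp, had 0.17 and -0.20, and -0.15 and 0.48 by its other probe set. Dio1, the hepatic deiodinase gene that thyroid hormone induces, had 0.10 and 0.36. The thyroid hormone receptor genes Thra and Thrb had diet ratios in HSL-null liver of -0.0067 and -0.021. The list's median in HSL-null liver was 0.097, and -0.059 under median scaling. Mlxipl, Srebf2 and G6pdx were not analysed here, and Insig1 lay below the floor on every array.

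**Figure D4:**
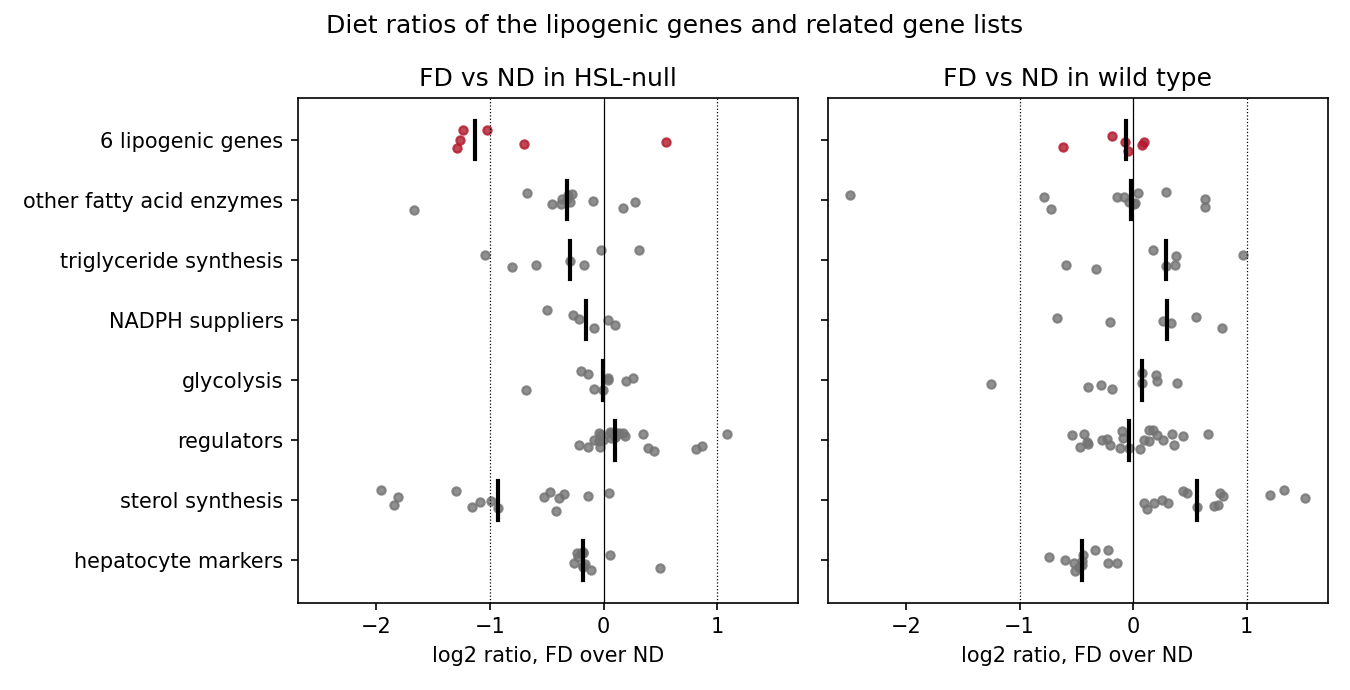
Log2 ratio of FD to ND in HSL-null liver (left) and wild-type liver (right), with 1 point per gene, a thick bar at each list's median and dotted lines at 2-fold. In HSL-null liver 5 of the 6 lipogenic genes lie left of 0, and in wild-type liver they lie near 0 except Fasn at -0.62.

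Sterol synthesis genes differed from the lipogenic genes in wild-type liver. Over 15 measured genes the median diet ratio was 0.56 there, with 15 of 15 above 0, against 2124 of all 4829 genes. In HSL-null liver it was -0.93, with 14 of 15 below 0, against 2068 of all genes. They shared the low signals of the HSL-null FD pool. For genotype on FD the median was -1.19, with 9 of 15 2-fold lower, against 0.953% of all genes. The difference between genotype ratios had a median of -1.72, with 11 of 15 at or below -1, against 1.39%.

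Markers of other cell types had signals on these arrays and differed between the pools. On FD against ND in HSL-null liver, median log2 ratios were -0.18 for 12 hepatocyte, 0.16 for 5 adipocyte, 0.15 for 8 exocrine pancreas, -0.059 for 15 macrophage, 0.58 for 5 lymphocyte, 0.32 for 9 stellate cell and 0.37 for 4 red cell markers. In wild-type liver the medians for diet, in that order, were -0.45, 0.09, -1.39, -0.56, -0.89, -0.10 and -0.043. As genotype ratios on FD they were 0.011, 0.21, -0.14, 0.31, 0.60, 0.50 and 0.032, and on ND -0.20, 0.035, -1.56, -0.17, -0.64, 0.055 and -0.40. The pancreas and lymphocyte markers thus had larger shifts in comparisons with the wild-type ND pool. For genotype on FD, 15 of 15 macrophage markers were above 0 by their brightest probe sets, against 2815 of all 4829 genes. Other kept probe sets of these markers gave -0.18 for Laptm5, -0.21 for C1qb and 0.35 for Csf1r. The macrophage median for genotype on FD was 0.14 under median scaling. Under at least 1 other scaling the median changed sign for the pancreas markers in the first comparison, for the stellate and red cell markers in the second and for the hepatocyte and red cell markers in the third.

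Adipocytes express the lipogenic enzymes too. Of 16 listed adipocyte markers 14 were on the array and 5 passed the filter. All 5 had FD to ND ratios above 0 in HSL-null liver, against 2750 of all 4829 genes. The ratios ran from 0.0058 for Pnpla2 and 0.029 for Lpl, both near 0, up to 0.93 for Cd36, which encodes a fatty acid transporter. Under median scaling the median of the 5 was 0.0016. Adipoq (adiponectin) had signals of 4.9 in HSL-null FD, 4.8 in HSL-null ND, 9.2 in wild type FD and 18.1 in wild type ND, and Fabp4, a fatty acid binding protein gene of adipocytes and macrophages, had 25.2, 15.6, 18.6 and 15.6 in the same order. The summed signal of the 14 markers was 3352, 2822, 2965 and 2825, most of it from Car3, which hepatocytes express as well, and 2 of the 14 lay at or under the floor on all arrays. Red cells express Pklr. The summed signal of their 6 markers was 2646 in HSL-null FD, 2466 in HSL-null ND, 3102 in wild type FD and 3008 in wild type ND. The part of other cell types in the results was not tested, and in pooled tissue fewer cells of a type and less RNA per cell cannot be told apart.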

How the data were processed

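Total RNA was phenol-extracted, cleaned on columns and biotinylated, per the labels' protocols. The intensity values deposited by the authors are linear MAS5 signals, 1 for each probe set on each array, per the submitters' processing notes, which name no version. After trimming 2% at each end, the mean was 100.1 on each of the 4 arrays. Detection calls were not used here. Of 12488 probe sets, 66 were controls. Gene names came from the platform annotation, in which 10833 probe sets had 1 gene, 396 several and 1193 none. All 6 genes matched the RefSeq gene table by identifier, with 0 symbols changed.

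Signals were raised to the 25th percentile of all values (6.1) and taken to log2. Probe sets with a mean at or above the median of means (26.9) were kept, and each gene was represented by the brightest. With 1 array per group there were no tests, and precision is limited by the number of arrays. The ratio computation was tested on simulated data. Python 3.11.15, R 4.3.3 and limma 3.58.1 were used, limma for the quantile and cyclic loess alternatives. Members, lists and comparisons were chosen with earlier results of these data known. Named were all member probe sets, up to 4 genes with the largest ratios of each list, fixed key genes, and the 5 genes nearest in profile to a member. Run settings deposited by the authors record 2 solution lots, 1 per genotype, on 1 chip lot and 1 scan day, and named the labelled diet on 4 of 4 arrays.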

Additional observations from a re-analysis of the deposited data

Results flagged for a closer look

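In 5 of the 6 genes the genotype ratios on FD and ND had opposite signs. The share of all 4829 genes with opposite signs was not counted. The difference between the log2 ratios, FD minus ND, was -1.22 for Me1, -1.08 for Acly, -0.97 for Pklr, -0.62 for Fasn and 0.45 for Srebf1. For Fasn the ratio on ND was near 0 and fell below 0 under quantile normalization and cyclic loess, so its signs were then no longer opposite. In Thrsp the diet ratios of the genotypes had opposite signs, with a difference of -0.78, HSL-null minus wild type, and the wild-type ratio was near 0. With 1 array per group these differences were not tested.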

How the results depend on the processing

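No paired analysis was possible because each group has 1 array and no replicate. Results were recomputed with median scaling, quantile normalization or cyclic loess, a floor at the median, no floor, a pseudocount, no filter and a stricter filter, the mean or the second-brightest probe set, no suffix probe sets, and a 1.5-fold limit. Under them, the members' medians moved by less than the SD of 0.298 per ratio. The median difference between genotype ratios came close to that, at -1.17 under median scaling, where 4 members in place of 2 were at or below -1. The 4 members 2-fold lower for diet in HSL-null were 3 when probe sets of a gene were averaged, which leaves out Pklr, and 4 under the other alternatives that kept the 2-fold limit and could be run. The second-brightest probe set gives no count or median of members, as 1 member has one. The number of members lower on FD in HSL-null against wild type was 2 under median scaling, which adds Me1, and 5 at 1.5-fold, and 1 was lower for diet in wild type at 1.5-fold. Median scaling moved the median of all genes by -0.17 and 0.13 for genotype on FD and ND, and by -0.16 and 0.14 for diet in HSL-null and wild type. Of 24 member ratios, 3 changed sign under an alternative, those of Fasn for genotype on ND and of Me1 and Pklr for diet in wild type. The second probe set of Pklr moved its ratios for genotype on ND to 0.070 and for diet in HSL-null to -0.49. For diet in HSL-null, the share of all genes 2-fold lower ran from 0.476 to 1.25% over the alternatives and the share higher from 0.456 to 2.27%. For genotype on FD these shares ran from 0.745 to 1.72% and from 0.794 to 3.36%. For genotype on ND they ran from 0.278 to 2.64% and from 0.248 to 1.15%, and for diet in wild type from 1.11 to 4.07% and from 0.580 to 1.75%. With 1 array a group and no repeat, a difference of the size of the array's own error cannot be recognised.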

Other observations

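Thrsp lies on chromosome 7, as does Lipe, and 1779 genes of the RefSeq table lie between them, so it is no near neighbour of the targeted gene. The other 5 genes lie on other chromosomes, with Acly, Fasn and Srebf1 on chromosome 11, Me1 on chromosome 9 and Pklr on chromosome 3.

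Usf1, which encodes a factor that binds E-boxes of lipogenic promoters, had lower signals in HSL-null liver on both diets. They were 104.2 in HSL-null FD against 163.1 in wild type FD, and 79.3 in HSL-null ND against 120.6 in wild type ND, with log2 ratios of -0.65 and -0.60. Its other probe set gave -0.11 and -0.46. Bhlhe40, a clock-controlled repressor gene, had genotype ratios of 0.069 on FD and -0.79 on ND.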
